A study of Mus musculus with 2 samples.

Results

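The miR-181 family of the mouse consists of 6 microRNA genes at 3 loci, Mir181a-1 with Mir181b-1, Mir181a-2 with Mir181b-2, and Mir181c with Mir181d. They were taken by name from the 2202 microRNA genes of the deposited count tables, through the Ensembl identifiers of GENCODE M21, and all 6 were found. The tables come from microRNA sequencing of total RNA from the gastrocnemius, the large muscle of the calf, of female mice aged 25 days, for which the labels name no treatment. Their strain was B6CASTF1/J, an F1 hybrid whose parent strains are C57BL/6J and CAST/EiJ. The 2 libraries are biological replicates 1 and 2 of this 1 group. Their females carry separate numbers in the labels but a single donor identifier, so the spread between the libraries may be technical in part.

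A microRNA gene is transcribed as a longer RNA from which a hairpin is cut, and each side of the hairpin, the 5p and the 3p arm, can give a mature microRNA. The mature strand pairs with target messenger RNAs mainly through its seed, bases 2 to 8 from its 5′ end, so microRNAs with the same seed form a family with overlapping targets. In lymphocytes miR-181a sets the sensitivity of the T-cell receptor by lowering several phosphatases. In skeletal muscle, miR-181 is known to rise as myoblasts differentiate, where it represses the homeobox gene Hoxa11.

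The 5p arms are printed because they define the family and show which members are copies of each other. RefSeq (GRCm38.p6) held both arms of all 6 genes. The seed is in capitals, and positions are counted from 1 at the 5′ end.
miR-181a-5p, from Mir181a-1 and Mir181a-2: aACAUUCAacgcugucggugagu
miR-181b-5p, from Mir181b-1 and Mir181b-2: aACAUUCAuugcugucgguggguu
miR-181c-5p, from Mir181c: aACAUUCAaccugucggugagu
miR-181d-5p, from Mir181d: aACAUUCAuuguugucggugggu
All 6 genes have the same seed in their 5p arm, and no other gene among the 1738 mature RefSeq entries has it. The 6 genes give 4 different 5p sequences. From miR-181a-5p to miR-181b-5p there are 3 substitutions over 23 bases, A9U, C10U and A21G, all outside the seed. From miR-181b-5p to miR-181d-5p there is 1, C12U. miR-181c-5p is 22 bases long against 23 for miR-181a-5p, with which it shares the first 10 and the last 12 bases. Mir181c therefore resembles the a type and Mir181d the b type.

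The 3p arms, by contrast, differ in all 6 genes. They are printed because they separate the copies that the 5p arms do not, again with bases 2 to 8 in capitals.
miR-181a-1-3p: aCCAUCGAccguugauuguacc
miR-181a-2-3p: aCCACCGAccguugacuguacc
miR-181b-1-3p: cUCACUGAacaaugaaugcaa
miR-181b-2-3p: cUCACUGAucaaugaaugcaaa
miR-181c-3p: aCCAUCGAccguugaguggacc
miR-181d-3p: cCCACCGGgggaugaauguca
The 3p arms of Mir181a-1 and Mir181a-2 differ by U5C and U16C over 22 bases. Those of Mir181b-1 and Mir181b-2 differ by A9U over 21 bases. The 3p arms of Mir181a-1 and Mir181c have the same bases 2 to 8 and differ further on, by U16G and U19G.

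The hairpins of the paired copies are given whole to show how far the sequence that they share reaches. Capitals mark the longest stretch held by both hairpins of a pair.
Mir181a-1: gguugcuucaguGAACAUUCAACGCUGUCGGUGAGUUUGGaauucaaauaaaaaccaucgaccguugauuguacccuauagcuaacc
Mir181a-2: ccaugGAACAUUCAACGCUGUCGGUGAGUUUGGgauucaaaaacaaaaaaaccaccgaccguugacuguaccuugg
Mir181b-1: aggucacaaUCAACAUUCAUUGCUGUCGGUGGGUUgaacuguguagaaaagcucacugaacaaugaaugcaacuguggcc
Mir181b-2: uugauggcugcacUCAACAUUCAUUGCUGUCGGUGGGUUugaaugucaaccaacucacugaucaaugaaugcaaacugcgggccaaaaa
The shared stretch was 28 bases in the a pair and 26 in the b pair, and it covered the whole 5p arm in both. In the a pair it went on past the 3′ end of the 5p arm, and the hairpins parted only when the arm was extended by 5 bases on that side. In the b pair 1 added base at the 3′ end was enough to part them, g in Mir181b-1 and u in Mir181b-2. Of the windows of 22 bases in each hairpin, 7 in Mir181a-1 and in Mir181a-2, and 5 in Mir181b-1 and in Mir181b-2, occurred in another of the 2202 hairpins. None of the 68 windows of Mir181c or the 51 of Mir181d did. Only these hairpins were searched, not the rest of the genome. Mir181c and Mir181d are accordingly called single-copy below and the other 4 multi-copy.

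**Figure D1:**
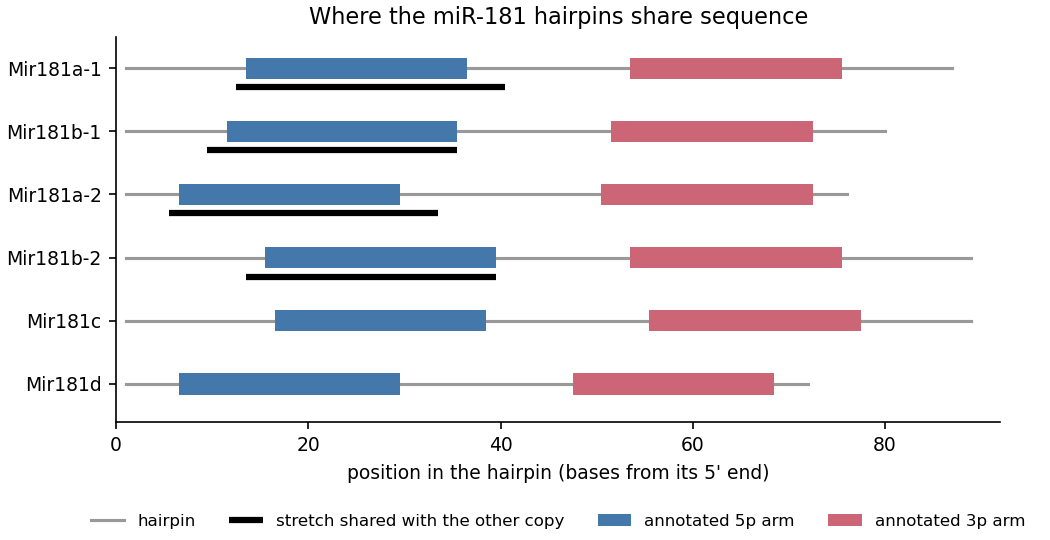
Map of the 6 hairpins, with position in bases from the 5′ end on the x axis; blue and red boxes are the annotated 5p and 3p arms, and the black bar is the stretch shared with the other copy. The bar spans 28 bases in Mir181a-1 and Mir181a-2 and 26 in Mir181b-1 and Mir181b-2, always over the 5p arm, and Mir181c and Mir181d have none.

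In the mm10 assembly (GRCm38), Mir181a-1 (ENSMUSG00000065565.1) lies at chr1:137966455-137966541 and Mir181b-1 (ENSMUSG00000065458.1) at chr1:137966639-137966718, both on the forward strand and 97 bases apart. Both lie in an intron of the non-coding gene Gm4258, and an exon of the lincRNA A430106G13Rik covers Mir181b-1 whole and 11 bases of Mir181a-1. Mir181a-2 (ENSMUSG00000065423.1), at chr2:38852735-38852810, and Mir181b-2 (ENSMUSG00000065578.1), at chr2:38853830-38853918, are on the forward strand and 1019 bases apart. They lie opposite an intron of Nr6a1, which encodes an orphan nuclear receptor of germ cells and the early embryo, and Mir181b-2 also lies opposite an exon of Gm44144. Mir181c (ENSMUSG00000065483.2), at chr8:84178873-84178961, and Mir181d (ENSMUSG00000076338.1), at chr8:84178716-84178787, are on the reverse strand, 85 bases apart, in an intron of Nanos3, which encodes an RNA-binding protein of germ cells. No other microRNA gene lay within 10 kb of any member. No read was counted on the strand opposite a member in either library.

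Replicate 1 held 1573213 counts on the strand of microRNA genes and replicate 2 held 5429127, so replicate 2 gives the more precise values. The level of a gene is its CPM, its counts per 1000000 of the library's total. For a gene with no count, the limit of 3 counts corresponds to 1.91 CPM in replicate 1 and 0.553 CPM in replicate 2. Intervals on levels and shares are exact (Clopper-Pearson) 95% intervals, those on ratios are exact conditional ones, and none of them covers more than counting error. The tables count a hairpin as a whole, so the arms of a gene were not told apart. Reads with several alignments, 68.6% of the total in replicate 1 and 69.7% in replicate 2, were counted for no gene. A read lying wholly within the stretch shared by 2 copies, which covers their 5p arm, aligns to both and was counted for neither. This applies to the 4 multi-copy members and not to Mir181c and Mir181d. Levels and shares below are therefore those of the reads counted, not of the microRNAs. How many of the uncounted reads came from miR-181 genes was not tested. As for the tissue, 9 of 9 listed striated muscle microRNAs had counts, summing to 3.64% and 7.50% of the counts in replicates 1 and 2, most of it from Mir206, a microRNA of skeletal muscle. Of the genes of miR-1, another muscle microRNA, Mir1a-2 was at 378 and 318 CPM and Mir1a-1 at 14.0 and 15.8 CPM. The Mir1a genes are copies, as are the Mir133a genes, so reads that align to both copies are missing from these values. The abundance of miR-1 and miR-133a, and the part of Mir206 in all muscle microRNA, cannot be read from them. The summed level of 6 markers of white blood cells, where miR-181 is also known to act, was 0.352% and 0.307%. Endothelial Mir126a made up 9.33% and 10.3%, and 5 microRNAs of smooth muscle and fibroblasts 13.3% and 6.34%. Most of the latter sum was Mir143, at 127590 and 59272 CPM in replicates 1 and 2. Mir145a, Mir199a-1 and Mir199a-2 were also lower in replicate 2, whereas Mir214 was higher, at 1674 and 2355 CPM. Red-cell markers summed to 0.270% and 0.0587%, and epithelial ones to 0.0423% and 0.0233%. Those of nerve summed to 0.158% and 0.0750%, nearly all of it from Mir338, with 1581 and 749 CPM. Of the 7 nerve genes 4 (the 3 Mir124a genes and Mir9-2) were at 0 counts. By their names the Mir124a genes are copies, as are the Mir9 genes. Reads that align to several copies would be missing, so 0 counts does not show absence. The part of these cells in the miR-181 levels was not tested, and in bulk tissue fewer cells of a type cannot be told apart from less RNA per cell.

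The miR-181 family held a small share of the reads that were assigned to microRNA genes. The 6 genes together had 3321 counts in replicate 1 and 10691 in replicate 2. They made up 0.211% (95% interval 0.204 to 0.218) of all microRNA-gene counts in replicate 1 and 0.197% (0.193 to 0.201) in replicate 2, a mean of 0.204% ± 0.0100 (SD, n = 2). All 6 reached the 2 CPM in both libraries at which a gene was called detected, as did 324 of the 2202 genes. Mir181b-1 did so narrowly.

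Among the single-copy members, Mir181c was the highest gene of the family, with 1231 counts in replicate 1 and 4029 in replicate 2. This corresponded to 782 CPM (739 to 827) and 742 CPM (719 to 765), a mean of 762 ± 28.5 CPM (SD, n = 2). It ranked 77th and 78th of all microRNA genes. Mir181d, its partner in Nanos3, had 693 and 2424 counts, or 441 CPM (408 to 475) and 446 CPM (429 to 465). The counting intervals of its libraries overlapped, around a mean of 443 ± 4.23 CPM.

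Among the multi-copy members, levels ran from close to that of Mir181c down to the limit of detection. Mir181b-2 had 967 and 2756 counts, or 615 CPM (577 to 655) in replicate 1 and 508 CPM (489 to 527) in replicate 2, a mean of 561 ± 75.7 CPM. Mir181a-1 had 389 and 1282 counts, which gave 247 CPM (223 to 273) and 236 CPM (223 to 249), a mean of 242 ± 7.87 CPM. Both of these were above the median of the 324 detected genes, 130 CPM. Mir181a-2 had 36 and 187 counts, or 22.9 CPM (16.03 to 31.7) and 34.4 CPM (29.7 to 39.7), a mean of 28.7 ± 8.17 CPM. Mir181b-1 was the lowest, with 5 and 13 counts. Its 3.18 CPM (1.03 to 7.42) in replicate 1 and 2.39 CPM (1.27 to 4.09) in replicate 2 gave a mean of 2.79 ± 0.554 CPM, and the lower bounds were under the detection minimum.

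**Figure D2:**
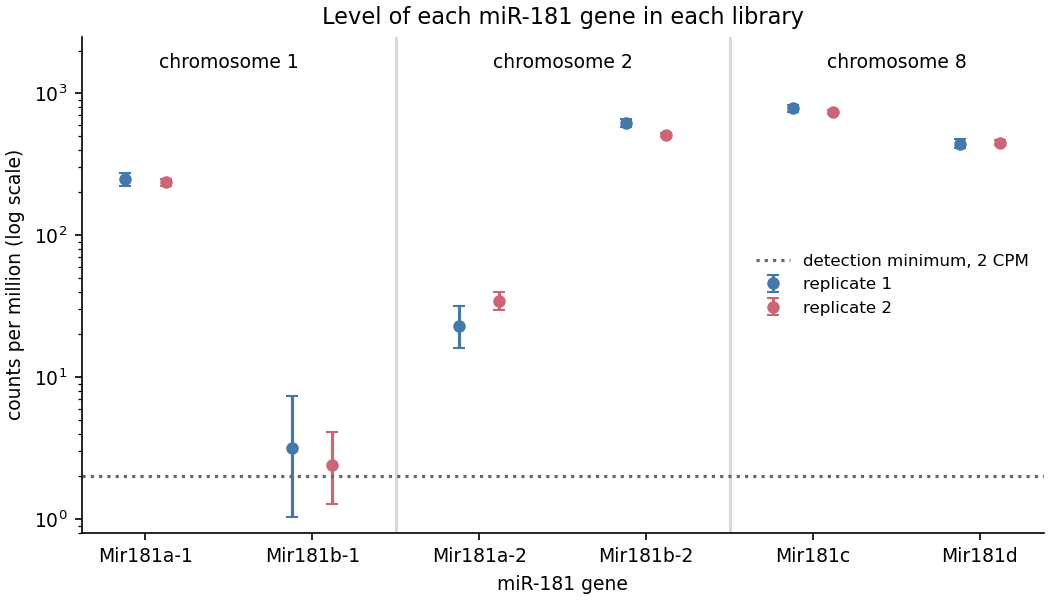
Level of each miR-181 gene in CPM on a log axis, by locus; points are the libraries and bars their exact 95% counting intervals, and the dotted line is the detection minimum of 2 CPM. At each of the chromosome 1 and 2 loci 1 gene sits far below the other, whereas Mir181c and Mir181d lie close together, at 762 and 443 CPM on average.

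By the CPM of the reads counted, the descending order was Mir181c, Mir181b-2, Mir181d, Mir181a-1, Mir181a-2 and Mir181b-1. The order was the same in both libraries, and no library of a gene overlapped a library of its neighbour in the order. Mir181c exceeded Mir181b-2 by 201 CPM and Mir181b-2 exceeded Mir181d by 118 CPM, where the larger SD of the genes compared was 75.7 CPM in both cases. The closest neighbours were Mir181b-2 and Mir181d, with a log2 ratio of 0.48 (0.34 to 0.62) in replicate 1 and 0.19 (0.11 to 0.26) in replicate 2. Small RNA reads cover an arm rather than the hairpin, so CPM were not divided by length. Per 100 bases of hairpin, Mir181b-2 (89 bases) was still above Mir181d (72 bases) in replicate 1, at 691 against 612 CPM, but below it in replicate 2, at 570 against 620 CPM. The position of these 2 genes relative to each other thus depended on the scale. Mir181d was 1.83-fold above Mir181a-1, Mir181a-1 8.43-fold above Mir181a-2 and Mir181a-2 10.3-fold above Mir181b-1, as ratios of mean CPM.

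By locus, the counts fell mostly on chromosome 8. The locus of Mir181c and Mir181d reached 1223 CPM in replicate 1 and 1189 CPM in the other library, averaging 1206 ± 24.3 CPM. It held 57.9% (56.2 to 59.6) of the family's counts in replicate 1 and 60.4% (59.4 to 61.3) in replicate 2. The chromosome 2 locus had 638 and 542 CPM, a mean of 590 ± 67.5 CPM, and held 30.2% (28.6 to 31.8) and 27.5% (26.7 to 28.4). The chromosome 1 locus had 250.4 and 239 CPM, a mean of 244 ± 8.42 CPM, and held 11.9% (10.8 to 13.0) and 12.1% (11.5 to 12.7). The differences between loci exceeded the spread between libraries. The loci on chromosomes 1 and 2 were counted without reads lying within the shared 5p stretch, a limit that the chromosome 8 locus does not have. The chromosome 8 locus was 1.92-fold (replicate 1) and 2.19-fold (replicate 2) above that on chromosome 2, and 4.88-fold and 4.98-fold above that on chromosome 1.

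**Figure D3:**
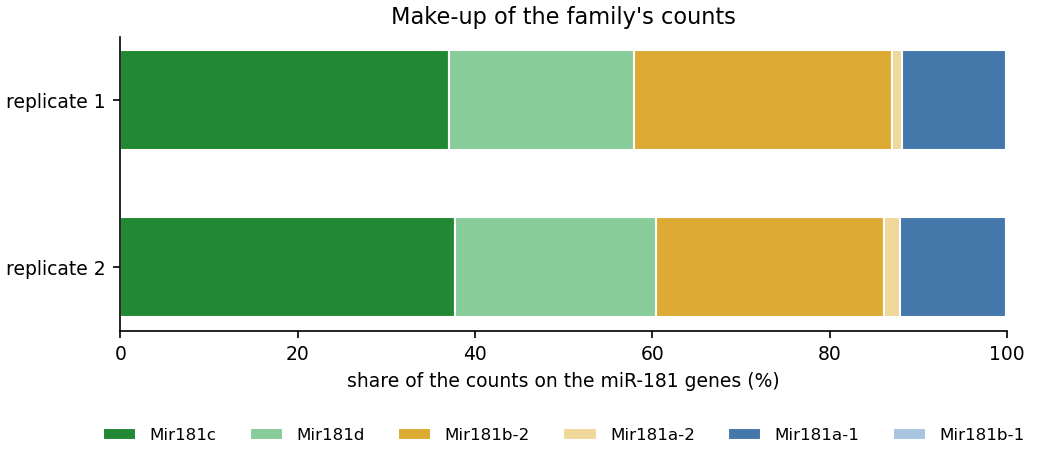
Share of each miR-181 gene in the family's counts, in percent, as stacked bars for the 2 libraries. Mir181c and Mir181d (green) hold 57.9% and 60.4%, Mir181b-2 holds 29.1% and 25.8%, and Mir181b-1, at 0.151% and 0.122%, is too small to be seen.

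Within a locus the genes were close in counted level only on chromosome 8. That is also the only locus with no window of 22 bases shared with another of the 2202 hairpins. Whether all reads of its 5p arms were counted was not tested. On chromosomes 1 and 2 reads lying within the shared 5p stretch are missing, so the ratios of the loci are not alike in measure. Mir181d over Mir181c had a log2 ratio of -0.83 (-0.97 to -0.69) in replicate 1 and -0.73 (-0.81 to -0.66) in replicate 2, so Mir181c was 1.78-fold and 1.66-fold the higher. On chromosome 1 the a gene was by far the higher: Mir181b-1 over Mir181a-1 had a log2 ratio of -6.15 (-7.91 to -5.05) and -6.57 (-7.54 to -5.84). On chromosome 2 it was the b gene, with Mir181b-2 over Mir181a-2 at 4.73 (4.27 to 5.27) and 3.88 (3.67 to 4.10). The intervals of the last ratio did not overlap between libraries. The 2 multi-copy loci, which encode the same 5p sequences, thus had opposite partners in excess among the reads that could be counted.

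The single-copy members had more counts than the 4 multi-copy members together, but the margin was small. The single-copy members are also the members of the chromosome 8 locus, so copy class cannot be told apart from locus. The multi-copy sum lacks the reads lying wholly within a stretch shared by copies, a limit that the single-copy sum does not have. Whether the number of copies has a part in the margin was not tested. Mir181c and Mir181d had 1924 counts against 1397 in replicate 1 and 6453 against 4238 in replicate 2, 1.38-fold and 1.52-fold more. The log2 ratio was 0.46 (0.36 to 0.56) and 0.61 (0.55 to 0.66), a mean of 0.53 ± 0.10 (SD, n = 2). Mir181b-2 alone held 69.2% (66.7 to 71.6) and 65.0% (63.6 to 66.5) of the multi-copy counts. Without it, an alternative chosen after its values were seen, the mean log2 ratio was 2.14, and with the median of each class in place of the sum it was 2.16. The 2 classes overlapped, since the multi-copy Mir181b-2 was above the single-copy Mir181d in CPM.

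The copies of a mature sequence were counted very unequally. Reads of the shared mature sequence alone align to both copies and were counted for neither. The ratios rest on the reads that were placed on 1 hairpin only. In the b pair the base after the shared stretch is u in Mir181b-2 and g in Mir181b-1. A single base at the 3′ end of a 5p read can therefore decide the gene for which it is counted. How many reads were placed by that base was not tested, nor was how much of the shared sequence each gene gave. Mir181b-2 had 176-fold (log2 ratio 7.46, 6.37 to 9.22) and 204-fold (7.67, 6.95 to 8.64) the counts of Mir181b-1 in replicates 1 and 2. Mir181a-1 had 10.7-fold (3.42, 2.94 to 3.97) and 6.84-fold (2.77, 2.55 to 3.01) the counts of Mir181a-2. For comparison, the RefSeq table gives 26 pairs of genes with at least 10 counts in all an identical mature sequence and lists it for these 2 genes only. The copies of Mir1a and of Mir133a are not among these pairs, so the 26 are not all such pairs. The mean log2 ratio of the higher over the lower copy had a median of 2.24 over these pairs, the miR-181 pairs included. In only 12 of the 26 pairs did the higher copy reach 100 CPM, and a large ratio cannot be seen where it is near the floor. The miR-181b pair ranked 2nd of the 26 at 7.57, after Mir196a-2 over Mir196a-1 at 7.92. The miR-181a pair ranked 11th at 3.09, under the upper quartile of 4.88. Mirlet7c-2 stands in 2 of the pairs. Of all 2202 genes, 1023 share a window of 22 bases with another hairpin, and 6.35% of these were detected, against 21.97% of the 1179 others. The detected genes with a shared window had a median of 47.5 CPM and the others 154 CPM. Mir181b-2 and Mir181a-1 were above the first value, and Mir181a-2 and Mir181b-1 below it.

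**Figure D4:**
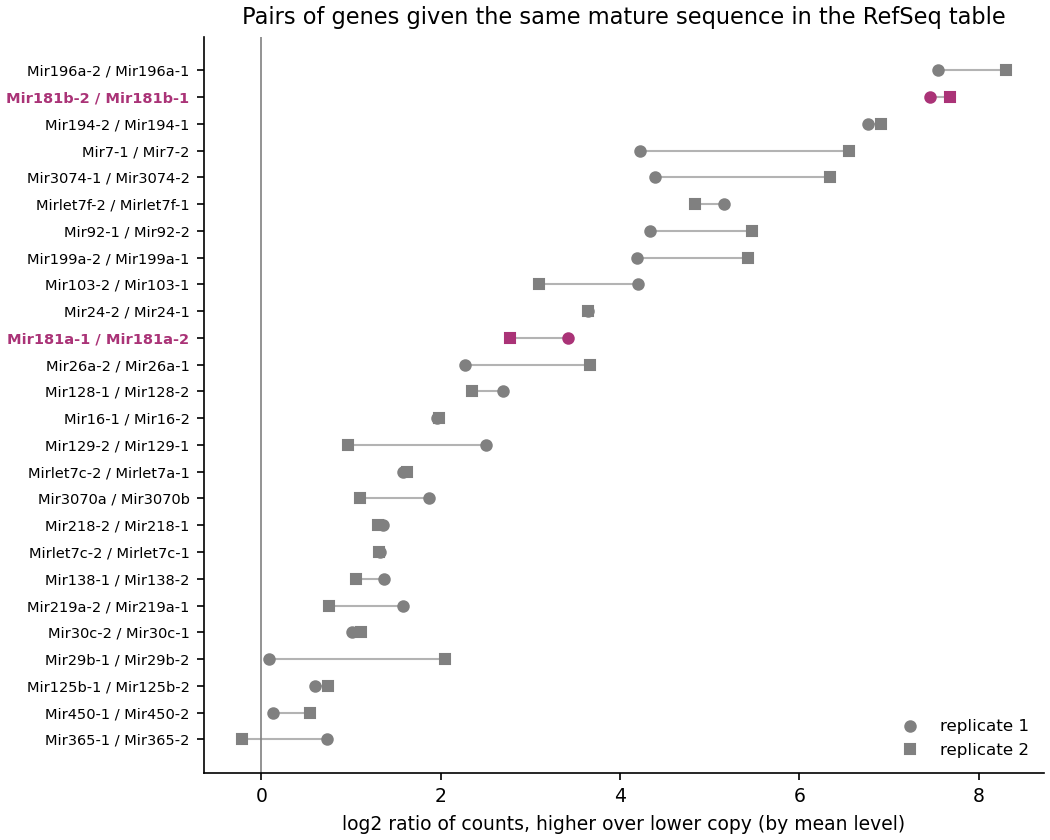
Log2 ratio of counts between the copies of each of 26 pairs of genes given the same mature sequence in the RefSeq table, higher over lower by mean level; circles are replicate 1, squares replicate 2, and the miR-181 pairs are in purple. The miR-181b pair, 2nd of the 26 by mean ratio, lies at 7.46 and 7.67 in replicates 1 and 2. The miR-181a pair, 11th, lies at 3.42 and 2.77. All these values are above the median of the pairs, 2.24, in which both miR-181 pairs are included. That median includes pairs whose higher copy has few counts.

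Between the libraries, 1 of the 6 genes passed the test. For each gene, the split of its counts was set against the split of the library totals by an exact binomial test (two-sided), with Benjamini-Hochberg adjustment over the 364 genes with at least 10 counts in all. These tests compare the reads of 1 library with those of another, not conditions. Mir181b-2 was called, higher in replicate 1 (log2 ratio of replicate 2 over replicate 1 -0.28, -0.38 to -0.17, adjusted p = 2.12e-06, exact binomial test). The other 5 members did not pass. Of all genes tested, 45.3% were called, with replicate 1 the higher in 30.2% and replicate 2 in 15.1%, so 1 call among 6 members says nothing particular about the family. The log2 ratios of the more abundant members were -0.08 (-0.17 to 0.02) for Mir181c, 0.02 (-0.10 to 0.14) for Mir181d and -0.07 (-0.23 to 0.10) for Mir181a-1. Mir181a-2 was at 0.57 (0.07 to 1.15, adjusted p = 0.0534, exact binomial test) and Mir181b-1, on 18 counts in all, at -0.49 (-1.99 to 1.43). The median over the 6 genes was -0.07, beside -0.15 over all genes tested. The spread of a single gene's log2 ratio between these libraries, estimated over all detected genes, had an SD of 0.50. Unlike the ratios given here, it was fitted with TMM factors of edgeR, and it leaves out counting error. For members with few counts this SD is therefore only a rough guide. Of the members, 5 lay within it, as did 66.2% of all genes tested, and Mir181a-2 lay beyond it.

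**Figure D5:**
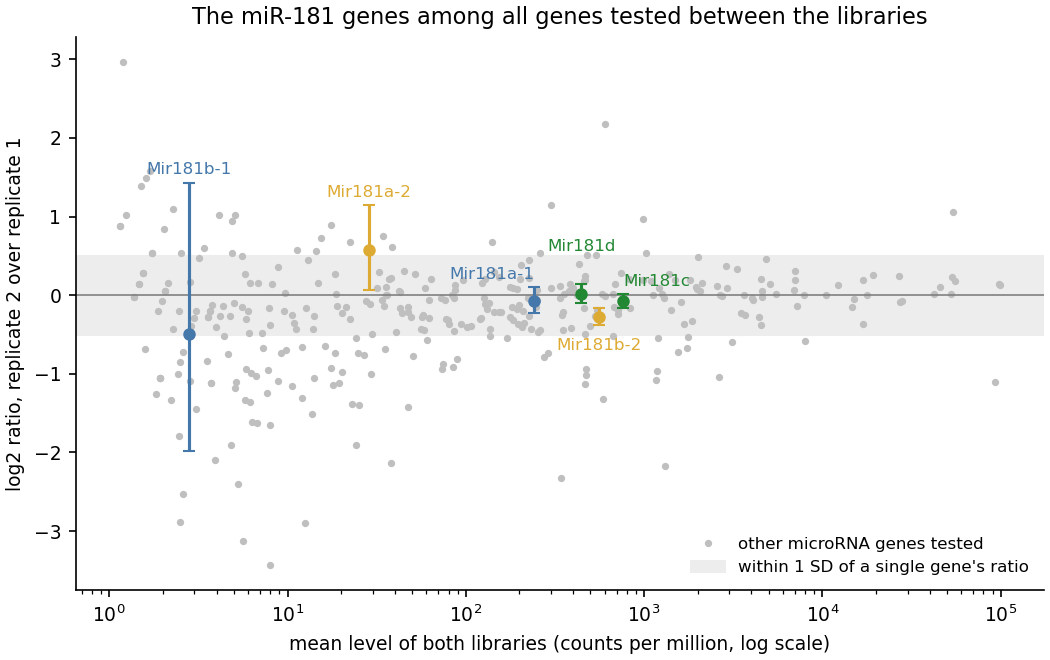
Log2 ratio of replicate 2 over replicate 1 against mean level in CPM (log axis) for the 364 genes tested; coloured points with exact 95% intervals are the miR-181 genes, grey points the other genes, and the band is 1 SD of a single gene's ratio (0.50). The 4 abundant members sit inside the band, Mir181c, Mir181d and Mir181a-1 close to 0 and Mir181b-2 at -0.28. Mir181a-2 is above the band at 0.57 and Mir181b-1 has an interval from -1.99 to 1.43. The band leaves out counting error.

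The calls among the members depended on the scaling, which moves the ratios of all genes by 1 constant. The median log2 ratio of the detected genes was -0.15 with library totals, 0.03 with TMM factors and 0.05 with DESeq2 size factors. Of the genes called, 66.7% were higher in replicate 1 with totals, 40.2% with TMM and 37.8% with DESeq2. Mir181b-2 lost its call under both, with adjusted p = 0.133 and 0.288 in the exact binomial test. Mir181a-2 and Mir181d were then called higher in replicate 2, at log2 ratios of 0.75 and 0.20 with TMM and 0.78 and 0.22 with DESeq2. Mir181c was called higher in replicate 2 with DESeq2 alone, at 0.13. The ratios that lay just below 0 with library totals turned positive, that of Mir181c at 0.10 with TMM and 0.13 with DESeq2 and that of Mir181a-1 at 0.11 and 0.13, so the direction of these genes depended on the scaling.

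Other microRNAs of the settings in which miR-181 is known were set beside it. Of 12 listed microRNAs of lymphocytes 11 were tested, and 6 were called with the higher level in replicate 1 and 2 with the higher level in replicate 2, with a median log2 ratio of -0.16. With TMM and with DESeq2 the calls were 4 and 4. Mir150, a microRNA of mature lymphocytes, had 574 and 579 CPM in replicates 1 and 2 and was not called, while Mir142, a microRNA of blood cells, had 839 and 336 CPM and was called. Of 17 listed microRNAs of myoblast differentiation, 4 had a called excess in replicate 1 and 6 in replicate 2, with a median of 0.07. With TMM these were 3 and 7, and with DESeq2 2 and 7. Over all genes tested, 30.2% were called with an excess in replicate 1 and 15.1% in replicate 2, 45.3% in all, and nothing particular to the lists is read from their counts. Mir206, which promotes that differentiation, had 34864 and 72482 CPM and was called, whereas Mir133b, transcribed with it, had 27.97 and 26.89 CPM and was not. Whether reads of Mir133b went uncounted because they align to several places was not tested. These lists share no gene with the miR-181 family, and the difference between the lists and the family was not tested.

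In level, the genes nearest to Mir181c over both libraries were Mir425 at 756 and 669 CPM, Mir329 at 758 and 664 CPM, and Mir542 at 777 and 656 CPM. The measure was the distance of log2(CPM + 1) over 2 libraries, which was 0.16, 0.17 and 0.18. Nearest to Mir181b-2 were Mirlet7c-2, at 613 and 507 CPM, then Mir324 and Mir484. With 2 libraries this likeness is one of level alone.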

How the data were processed

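For each library the authors deposited raw counts in 1 table, with 3 count columns per microRNA gene and 4 tally rows for reads given to no gene. From the values, the columns hold reads on either strand, on the gene's strand and on the opposite strand. The first leaves out reads that fall on genes of both strands, tallied as ambiguous (356588 and 1318706 reads), and is therefore the smaller: the other columns sum to it plus 2 times that tally. Assembly mm10 and annotation M21 are named per the deposited readme files; the aligner and the counter were not given in the sources used here. Tally rows stayed out of totals. All 2202 identifiers matched GENCODE M21, whose transcript sequences served as hairpins.

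The members, gene lists and tests were chosen with earlier results of these data known. Named genes were the 6 members, microRNA genes within 10 kb of them, the listed genes and the 3 nearest in level to the 2 highest members. Genes set beside them otherwise, such as Mir196a-2, were chosen after their values were seen. Counts on the gene's strand were scaled to CPM, that is per 1000000. Single-gene ratios used an offset of 0.5 counts. The SD of a log2 ratio came from the common dispersion of edgeR 4.0.16, which with 1 group allows no test between groups; DESeq2 1.42.0 (R 4.3.3) gave alternative size factors. The libraries differed beyond sampling noise (chi-square 134418 on 363 degrees of freedom). Other software was scipy 1.17.1, numpy 2.4.6, matplotlib 3.10.9 and pandas 2.3.3 under Python 3.11.15. The exact test, the intervals and the dispersion were tested on simulated data. Alternatives were counts on either strand, a denominator of all aligned reads, other scalings, filters, offsets and classes, and each library left out.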

Additional observations from a re-analysis of the deposited data

Results flagged for a closer look

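Reads with several alignments lie outside the counts used for every comparison, 5050915 in replicate 1 and 16790938 in replicate 2. Their share was 68.6% of the reads of replicate 1 and 69.7% of those of replicate 2. Reads lying wholly within a stretch shared by 2 copies fall in this tally, which concerns the multi-copy members only. The tally gives no gene, so the miR-181 part of it was not tested.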

How the results depend on the processing

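Leaving out each library in turn leaves 1 library, whose value lies within 1 SD of the mean of 2 by construction, so it says nothing about stability. Counting reads on either strand left the members' counts as they were but lowered the totals, which raised the family share to 0.267% and the loci on chromosomes 1, 2 and 8 to 319, 770.2 and 1576 CPM. With all aligned reads as denominator these were 0.0481%, 57.7, 139 and 284 counts per 1000000 reads. Both change only the denominator and leave the order of the loci as it was by construction. The log2 ratio of single-copy over multi-copy members was 2.16 with class medians, 1.04 without the chromosome 1 locus, 2.30 without the chromosome 2 locus and 2.14 without Mir181b-2 (the last added after the data were seen). Taking genes out of the multi-copy sum can only raise this ratio. In place of 1 member called between the libraries, 2 were called with the either-strand column, with TMM and with a minimum of 50 counts, and 3 with DESeq2 size factors. Under the first and the third of these Mir181a-2 joined Mir181b-2. TMM and DESeq2 shift all ratios by a constant, and Mir181c turned to 0.10 and 0.13 and Mir181a-1 to 0.11 and 0.13. Other offsets, and no filter, changed no member's call or direction. Mir181b-1, with 5 and 13 counts, is the level that depth limits most. No paired analysis was possible because there is 1 group.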
